A study of Rattus norvegicus with 233 samples.

Results

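A65 and A44 are 2 of the 84 real-time PCR assays run on 233 single hepatocytes of rat liver. Both were chosen by their relative levels, which on the ethanol diet lay furthest below those at 0 h in cells taken 24 h after partial hepatectomy. A65 was also selected on its lower relative level at 24 h on the control diet, labelled carbohydrate. The values that chose them are given as descriptions and support nothing. The deposited table identifies each assay by number alone, and the sources used here pair neither number with a gene, so neither assay is given a gene name, a function or a sequence, and the hepatocyte label was not checked against marker genes.

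In partial hepatectomy a portion of the liver is cut away. The remaining hepatocytes, which are normally quiescent, leave rest, replicate their DNA and divide until liver mass is restored, while they go on making plasma proteins and handling nutrients and toxic compounds. Ethanol is oxidised mainly in hepatocytes, and long ethanol feeding is known to slow this regrowth. In real-time PCR the cycle threshold (Ct) is the cycle at which the product becomes visible. The more template, the lower the Ct, and a gap of 1 cycle is a 2-fold gap in template when amplification is perfect.

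The rats were kept on the Lieber-De Carli feeding protocol, in which animals drink a liquid diet with ethanol or, here, carbohydrate. Carbohydrate-fed rats were represented by 69 cells at 0 h and 55 at 24 h from resection, ethanol-fed rats by 55 and 54. Each cell was cut out by laser capture microdissection and lysed whole. The labels give no strain, sex, age or number of animals and tie no cell to an animal, so each group counted as 1 sample. No test was run, and all differences lack a replicate check. Each error is an SD over cells, without the spread from animal to animal. The diet groups cannot be told apart from differences between the animals in them, nor can the groups by time.

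The level used below is the relative level, on the log2 scale. It is the median Ct of a cell over 28 common assays minus the cell's Ct for the assay in question, so that a higher value means more transcript relative to the rest of that cell. Common assays had a Ct in 80% or more of cells in each of the 4 groups. A65 was among them and A44 was not. Group means run over the cells with a Ct, and a difference of at least 1 was taken as the size rule. The number of assays with a Ct per cell differed between groups, with a median of 54 of 84 in carbohydrate-fed 0 h cells, 64 in ethanol-fed 0 h cells and 71 at 24 h on both diets. NULL entries made up 35.7% and 28.1% of the table at 0 h on carbohydrate and on ethanol, and 19.3% and 18.7% at 24 h.

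On both diets A65 was lower at 24 h than at 0 h, while about the same share of cells had a Ct for it. In carbohydrate-fed 0 h cells its relative level ran from -7.54 to 6.66 with a median of 0.29 and a mean of 0.03 ± 2.27 (SD, n = 60 cells). In carbohydrate-fed 24 h cells it ran from -5.48 to 2.87 with a median of -1.72 and a mean of -1.68 ± 1.49 (SD, n = 50 cells). The ranges overlapped, but the middle of the distribution lay lower at 24 h. The mean difference was -1.71, which is a 3.27-fold lower relative amount at perfect amplification, and -0.87 of the pooled SD over cells. The lower quartile went from -0.72 to -2.43 and the upper quartile from 1.22 to -0.78, so that low and high cells were displaced by similar amounts.

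On ethanol the same assay stood highest at 0 h. Its relative level ran from -4.88 to 7.25 with a median of 0.65 in ethanol-fed 0 h cells, where the mean was 0.60 ± 1.93 (SD, n = 50 cells). At 24 h it ran from -10.4 to 0.73 with a median of -1.23 and a mean of -1.62 ± 2.02 (SD, n = 47 cells). The highest cell at 24 h thus lay close to the median of the cells at 0 h. The mean difference was -2.22, a 4.66-fold lower relative amount on the same assumption, or -1.12 of the pooled SD. The lower quartile differed by -1.49, the median by -1.88 and the upper quartile by -2.12.

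Nearly all 24 h cells with a Ct for A65 lay below the median of the 0 h cells on the same diet. Of the 50 carbohydrate-fed cells with a Ct at 24 h, 48 (96.0%) lay below the median of carbohydrate-fed 0 h cells. Of the 47 ethanol-fed 24 h cells, 46 (97.9%) lay below the median of ethanol-fed 0 h cells. Cells in which A65 stood above the cell's common-assay median were the majority at 0 h, with 36 of 60 carbohydrate-fed cells (60.0%) and 35 of 50 ethanol-fed cells (70.0%). At 24 h there were 3 of 50 (6.00%) on carbohydrate and 4 of 47 (8.51%) on ethanol. Over all pairs of a 24 h cell and a 0 h cell, the 24 h cell had the higher A65 level in 18.5% of pairs on carbohydrate and 16.1% on ethanol.

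**Figure D1:**
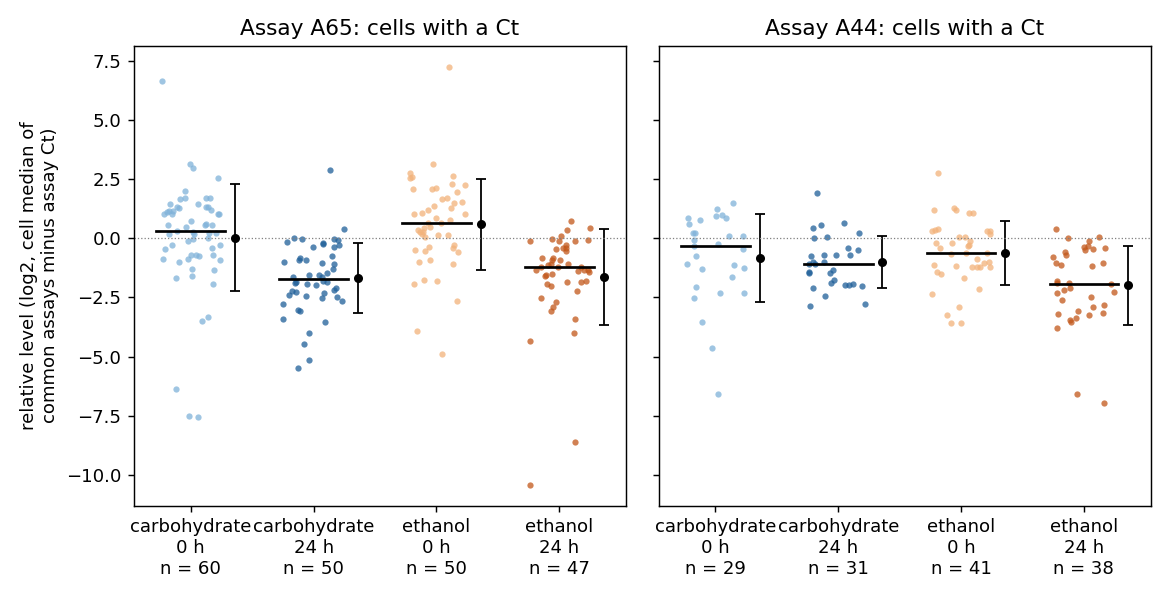
Relative level (log2) of A65, left, and A44, right, in every cell with a Ct, by diet and time; each point is 1 cell, the bar is the median over cells, and the black dot with whiskers is the mean with its SD over cells. A65 sits mostly below 0 at 24 h on both diets, with medians of -1.72 and -1.23, while for A44 the ethanol-fed 24 h cells are lowest, with a median of -1.91.

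A few cells lay far from the rest of their group for A65. In ethanol-fed 24 h cells the lowest values were -10.4 and -8.62, and only 3 of the 47 cells were below -4. In carbohydrate-fed 0 h cells the lowest were -7.54 and -7.52, again with 3 cells below -4. At the upper end, the highest ethanol-fed cell at 0 h stood at 7.25 against 3.15 for the next, and the highest carbohydrate-fed cell at 0 h at 6.66 against 3.13 for the next. The cell at 6.66 had only 33 assays with a Ct and a common-assay median of Ct 21.1, against 14.5 for its group. A late common-assay median raises the relative level at an unchanged A65 Ct. For the cell at 7.25 these values were 47 assays and Ct 15.5, against 13.6 for its group. Levels above 2 were found in 11 of 50 ethanol-fed and 5 of 60 carbohydrate-fed cells at 0 h, and in 1 of 50 carbohydrate-fed and 0 of 47 ethanol-fed 24 h cells. The SD of A65 over cells was near the middle of the panel in every group, from rank 34 of 81 counted from the smallest in ethanol-fed 0 h cells to rank 54 of 84 in ethanol-fed 24 h cells.

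The Ct of A65 without any scaling showed the same direction. Its median Ct was 13.7 in carbohydrate-fed 0 h cells (from 10.3 to 24.1) and 15.1 at 24 h (from 11.5 to 23.4). In ethanol-fed cells the median Ct was 12.7 at 0 h (from 6.70 to 21.4) and 14.1 at 24 h (from 11.1 to 22.2). A65 therefore appeared later at 24 h although the panel as a whole appeared earlier. In unscaled values, with the sign turned so that higher means more, A65 differed by -1.19 on carbohydrate, where the median assay of 80 differed by 0.69. On ethanol A65 differed by -1.62, where the median assay of 81 differed by 0.82.

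The position of A65 within each cell moved as well. This position is the share of the cell's other assays with a Ct that had a higher Ct, and since it depends on the primers, only its change is of use. Its median went from 68.3% to 28.3% on carbohydrate and from 73.4% to 40.0% on ethanol. The means were 61.1% ± 24.2 (SD, n = 60 cells) and 31.7% ± 14.6 (SD, n = 50 cells) in carbohydrate-fed cells at 0 h and 24 h. In ethanol-fed cells they were 68.4% ± 22.3 (SD, n = 50 cells) and 39.3% ± 17.2 (SD, n = 47 cells). At both times the ethanol-fed cells stood higher by this measure, and the SD was smaller at 24 h on both diets.

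A65 was also set against each of the other 27 common assays, one at a time, over cells with both values. On ethanol it was lower at 24 h against 27 of 27, and lower by at least 1 against all 27, with differences between -3.58 and -1.47 and a median of -2.33. On carbohydrate it was lower against 26 of 27, and by at least 1 against 21, between -4.38 and 0.21 with a median of -1.73. The exception was A26, the assay with the lowest difference on carbohydrate (-1.77). This exception was named after its value was seen. All these comparisons reuse the A65 values by which it was chosen, so they are not separate checks.

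By the mean, A44 differed between the times mainly on ethanol, and less than A65. In ethanol-fed 0 h cells its relative level ran from -3.60 to 2.78 with a median of -0.62 and a mean of -0.62 ± 1.36 (SD, n = 41 cells). At 24 h it ran from -6.97 to 0.40 with a median of -1.91 and a mean of -1.99 ± 1.66 (SD, n = 38 cells). The distributions overlapped widely. The mean difference of -1.37 corresponds to a 2.59-fold lower relative amount at perfect amplification, or -0.91 of the pooled SD. The lower quartile differed by -1.82 and the upper quartile by -0.90, so the low end moved further down than the high end. Levels below -2 were found in 6 of 41 cells at 0 h (14.6%) and 18 of 38 at 24 h (47.4%). Of the 38 cells at 24 h, 28 (73.7%) lay below the median at 0 h.

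On carbohydrate the measures of A44 did not give a single picture: its mean differed by less than the size rule, while its median and its upper part were lower at 24 h. Its relative level ran from -6.60 to 1.49 with a median of -0.31 at 0 h, where the mean was -0.82 ± 1.86 (SD, n = 29 cells). At 24 h it ran from -2.85 to 1.92 with a median of -1.08 and a mean of -1.02 ± 1.10 (SD, n = 31 cells). The mean difference was -0.19, or -0.13 of the pooled SD, and the difference of medians was -0.77. The upper quartile differed by -1.05 and the lower quartile by -0.28. Of the 31 cells at 24 h, 24 (77.4%) lay below the median at 0 h. The cells at 24 h lay in a narrower band, with an interquartile range of 1.45 against 2.23 at 0 h. The 2 lowest cells at 0 h stood at -6.60 and -4.62. Among these 24 h cells the SD of A44 was the 7th smallest of 84 assays.

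The Ct of A44 gave a weaker and mixed picture. Its median Ct was 14.5 in carbohydrate-fed 0 h cells (from 9.89 to 21.8) and 13.9 at 24 h (from 12.3 to 15.7). In ethanol-fed cells it was 13.8 at 0 h (from 9.84 to 23.3) and 14.5 at 24 h (from 11.9 to 24.0). Unscaled, with the sign turned, the mean of A44 differed by 0.67 on carbohydrate, close to the median assay. On ethanol it differed by -0.58, below the size rule, where the median assay differed by 0.82. The call for A44 on ethanol therefore needs the scaling, while its direction there does not. Against the 28 common assays taken singly, A44 was lower at 24 h against 27 on ethanol, with 20 by at least 1 and a median of -1.22. The exception was A65, named after its value was seen, against which A44 differed by 1.26. The ethanol comparisons reuse the values by which A44 was chosen. On carbohydrate A44 was lower against 14 of 28, with a median of -0.10. The median position of A44 among the assays of its cell went from 55.6% to 36.6% on carbohydrate and from 49.1% to 32.3% on ethanol, changes of -18.9 and -16.8 points. By this measure A44 was lower at 24 h on both diets.

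**Figure D2:**
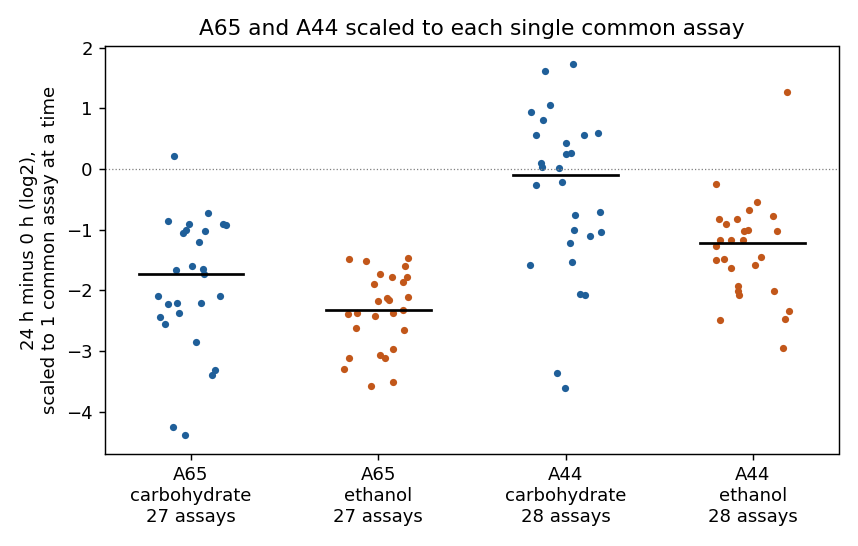
Difference between 24 h and 0 h (log2) for A65 and A44 when each of the other common assays alone is the reference; each point is 1 reference assay and the bar is the median over them. For A65 on ethanol all 27 points are below -1, and for A44 on carbohydrate 14 of 28 points lie below 0.

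Few assays of the panel were lower at 24 h by the size rule. On carbohydrate 3 of 80 assays compared were lower by at least 1 (3.75%), and A65 was 1 of these, with rank 2 from the lowest. A44 ranked 28th. On ethanol 3 of 81 were lower by at least 1 (3.70%), with A65 and A44 at ranks 1 and 2 by the choice itself. A44, at -1.37, was just inside that choice, and the next assay, at -1.16, just outside. The median assay differed by 0.23 on carbohydrate and 0.06 on ethanol. Nothing is read from these counts, because the same differences chose the assays.

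**Figure D3:**
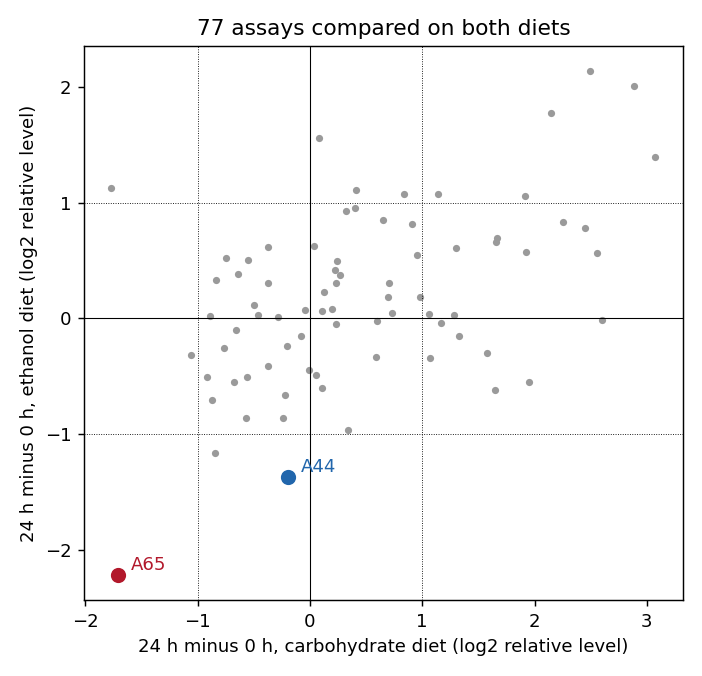
Difference in mean relative level (log2) between 24 h and 0 h on carbohydrate, horizontal axis, and on ethanol, vertical axis, for the 77 assays compared on both; each point is 1 assay and dotted lines mark the size rule of 1. A65 is at -1.71 and -2.22 and A44 at -0.19 and -1.37.

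The share of cells with a Ct for A65 was nearly level over the groups. It was 87.0% in carbohydrate-fed 0 h cells (60 of 69, exact Clopper-Pearson 95% interval 76.7% to 93.9%) and 90.9% at 24 h (50 of 55, 80.0% to 97.0%). In ethanol-fed cells it was 90.9% at 0 h (50 of 55, 80.0% to 97.0%) and 87.0% at 24 h (47 of 54, 75.1% to 94.6%). The intervals cover counting error over cells only and do not test a difference between groups. Most of the panel gained cells with a Ct at 24 h, with a median gain of 9.75 percentage points over 84 assays on carbohydrate and 8.45 on ethanol. A65 differed by 3.95 and -3.87 points, at ranks 63 and 76 of 84 from the largest gain.

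At 0 h more ethanol-fed than carbohydrate-fed cells had a Ct for A44. It was 42.0% in carbohydrate-fed 0 h cells (29 of 69, exact 95% interval 30.2% to 54.5%), against 56.4% at 24 h (31 of 55, 42.3% to 69.7%). It was 74.5% in ethanol-fed 0 h cells (41 of 55, 61.0% to 85.3%), against 70.4% at 24 h (38 of 54, 56.4% to 82.0%). The difference between diets at 0 h, 32.5 points, was the 3rd largest gain of the 84 assays, where the median assay differed by 5.39 points. At 24 h it was 14.0 points, the 4th largest, where the median assay differed by -0.12. Between 0 h and 24 h the share differed by 14.3 points on carbohydrate and by -4.18 points on ethanol. Among cells with at least 60 assays with a Ct, A44 had one in 14 of 22 carbohydrate-fed and 27 of 33 ethanol-fed cells at 0 h, a difference of 18.2 points.

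**Figure D4:**
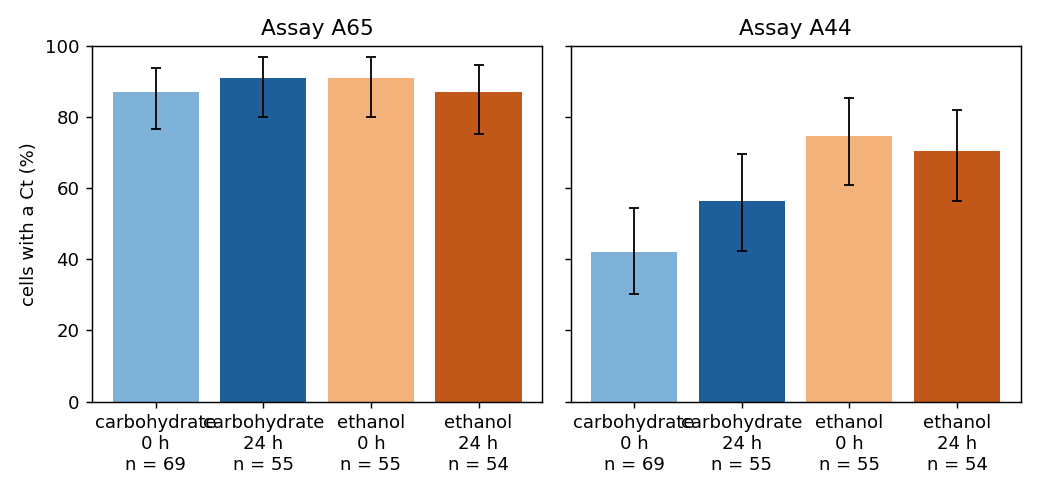
Share of cells with a Ct (percent of all cells of the group) for A65, left, and A44, right; whiskers are exact Clopper-Pearson 95% intervals and cover counting error over cells only. The bars for A65 lie between 87.0% and 90.9%, and those for A44 run from 42.0% in carbohydrate-fed 0 h cells to 74.5% in ethanol-fed 0 h cells.

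Cells without a Ct for either assay had, by the median, fewer other assays with a Ct. Of the other 82 assays, carbohydrate-fed 0 h cells had a median of 53.5 with a Ct where A65 had one and 42 where it had none (9 cells). In ethanol-fed 0 h cells these medians were 63 and 39 (5 cells without A65). For A44 the medians were 53 and 50 in carbohydrate-fed 0 h cells (40 cells without) and 72 and 64.5 in carbohydrate-fed 24 h cells (24 cells without). They were 64 and 52 in ethanol-fed 0 h cells (14 cells without) and 71 and 61.5 at 24 h (16 cells without). Whether a NULL means too little transcript or a reaction that did not work cannot be read from the table.

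The relative level of A44 went down as the number of assays with a Ct went up, while that of A65 followed this number only weakly. Over cells with a Ct, Spearman's correlation between the A44 level and the number of the other 82 assays with a Ct was -0.73 in carbohydrate-fed 0 h cells (n = 29 cells) and -0.45 at 24 h (n = 31 cells). It was -0.45 in ethanol-fed 0 h cells (n = 41 cells) and -0.25 at 24 h (n = 38 cells). For A65 it lay between -0.09 and 0.25 in the 4 groups. These are descriptions over cells of unknown animals, and each cell's scaling enters the level. The 24 h cells had more assays with a Ct, so this number moved with the comparison of the times.

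**Figure D5:**
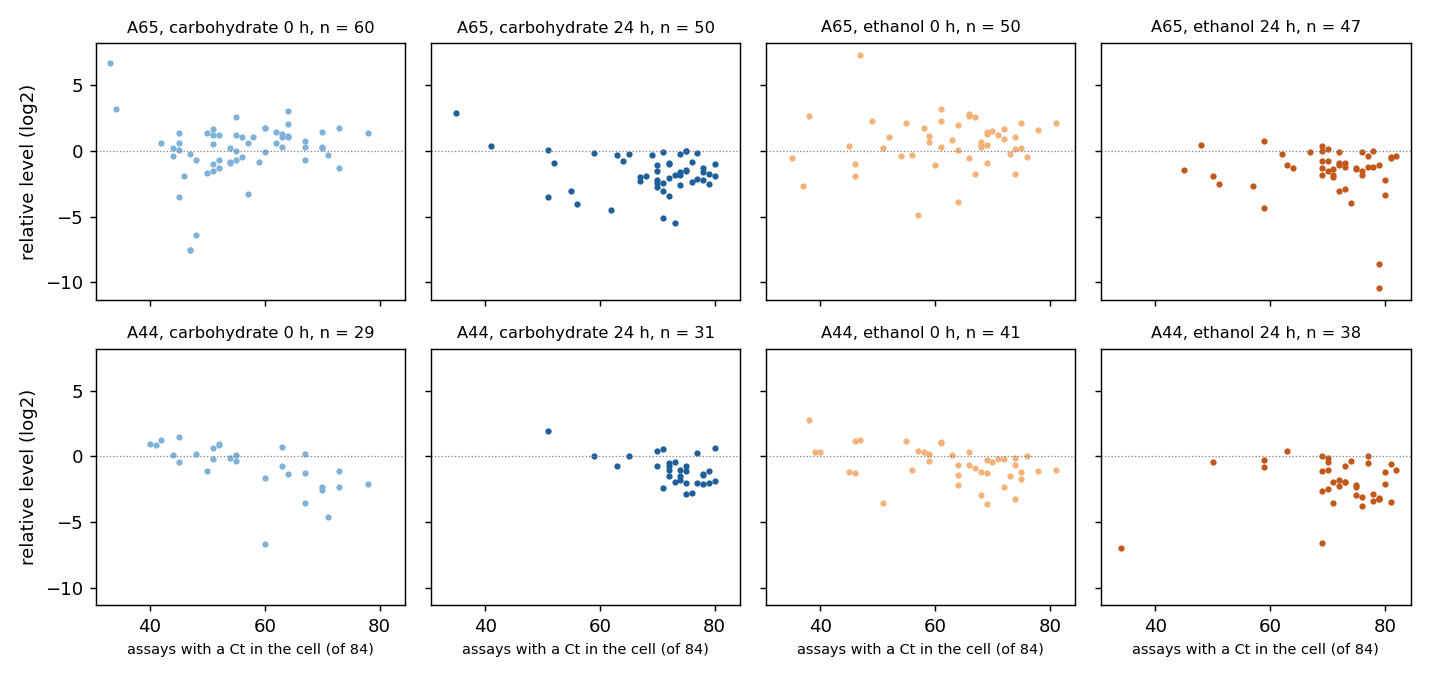
Relative level (log2) of A65, top row, and A44, bottom row, against the number of assays with a Ct in the cell, of 84; each point is 1 cell with a Ct and each panel is 1 group. For A44 the level goes down to the right, with a Spearman correlation of -0.73 in carbohydrate-fed 0 h cells, and for A65 the correlation lies between -0.09 and 0.25.

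The differences were therefore also taken among cells limited by their number of assays with a Ct. These limits narrowed the number but did not match it between the times. Among carbohydrate-fed cells kept by either limit, those at 24 h still tended to have more assays with a Ct. Among cells with 50 to 70 assays with a Ct, a range chosen after seeing the data, A65 differed by -2.19 on carbohydrate (41 cells at 0 h and 19 at 24 h with a Ct) and by -1.65 on ethanol (30 and 17 cells). A65 was lower by at least 1 in this range on both diets. Its share was also lower there, with a Ct in 41 of 41 cells at 0 h and 19 of 22 at 24 h on carbohydrate and in 30 of 30 and 17 of 21 on ethanol. A44 differed by -0.58 on ethanol in this range (22 and 12 cells), below the size rule, and could not be compared on carbohydrate, where 6 cells had a Ct at 24 h. Among all cells with at least 60 assays with a Ct, A65 differed by -2.65 and -2.29 on carbohydrate and on ethanol. A44 differed by 0.92 on carbohydrate there (14 and 29 cells) and by -1.01 on ethanol (27 and 34 cells).

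A set of 51 cells lacked a value for all 5 of A05, A11, A29, A56 and A66, with 15 carbohydrate-fed and 9 ethanol-fed cells at 0 h and 12 and 15 at 24 h. Within the other 182 cells A65 differed by -1.82 on carbohydrate and -2.57 on ethanol, and A44 by 0.10 and -1.69. In the 51 cells the A65 mean was -0.52 ± 1.08 (SD, n = 11 cells) in carbohydrate-fed 0 h cells and -1.70 ± 1.25 (SD, n = 11 cells) at 24 h, a difference of -1.18. The 9 ethanol-fed 0 h cells were too few for a comparison of means. A65 was thus lower at 24 h in both sets on carbohydrate. A44 had a Ct in 38.9% of the 54 carbohydrate-fed 0 h cells and 65.1% of the 43 at 24 h outside this set. Within it A44 had a Ct in 53.3% of 15 and 25.0% of 12 cells, so that the share went the other way.

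Over the 4 groups the mean A65 level was highest in ethanol-fed 0 h cells (0.60), then in carbohydrate-fed 0 h cells (0.03), ethanol-fed 24 h cells (-1.62) and carbohydrate-fed 24 h cells (-1.68). No neighbours in this order differed by more than the SD over cells of either group. The diets differed by 0.57 at 0 h, higher with ethanol, where 13 of 77 assays were at least 1 higher (16.9%) and 3 at least 1 lower (3.90%) with ethanol. At 24 h they differed by 0.05. The 24 h minus 0 h difference was further from 0 on ethanol by -0.51 with means. With medians over cells the difference between diets was 0.13, so these data give it no settled direction.

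The mean A44 level was highest in ethanol-fed 0 h cells (-0.62), then in carbohydrate-fed 0 h cells (-0.82), carbohydrate-fed 24 h cells (-1.02) and ethanol-fed 24 h cells (-1.99). Neighbours in this order also differed by less than their SDs over cells. At 24 h the diets differed by -0.97, just short of the size rule, which 5 of 84 assays passed as lower (5.95%), and A44 was the 6th lowest of 84 assays. At 0 h they differed by 0.20, or by -0.30 with medians over cells. Subtracting the carbohydrate time difference from the ethanol one gave -1.18, past the size rule. The same held for 16 of 77 assays (20.8%), and A44 ranked 15th from the lowest. It was -0.53 with medians over cells and -4.03 with missing values entered at Ct 30. These contrasts reuse the cells by which A44 was chosen.

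On ethanol both group means were lower at 24 h. From cell to cell, with scaling to the common assays, the order of A65 and A44 levels was alike to some degree in ethanol-fed 0 h cells. It was little alike in the other 3 groups. Both had a Ct in 25 of 69 carbohydrate-fed 0 h cells (36.2%), 31 of 55 at 24 h (56.4%), 39 of 55 ethanol-fed 0 h cells (70.9%) and 35 of 54 at 24 h (64.8%). Every carbohydrate-fed cell at 24 h with A44 also had A65. In the cells with both, Spearman's correlation between the relative levels was -0.16, 0.06, 0.36 and -0.06 in the same order of groups, and Pearson's r was -0.23, 0.06, 0.29 and 0.06. Without scaling, Spearman's correlation was 0.48, 0.17, 0.60 and 0.23, values that share each cell's total template. With scaling to the median of every assay with a Ct it was -0.34, -0.04, 0.089 and -0.11. The likeness in ethanol-fed 0 h cells therefore depended on the scaling. Both assays stood below the cell's common-assay median in 8 of 25 carbohydrate-fed 0 h cells and 24 of 31 at 24 h, and in 7 of 39 ethanol-fed 0 h cells and 29 of 35 at 24 h. At 24 h each assay alone was seldom above that median. A65 was above it in 3 of 50 carbohydrate-fed and 4 of 47 ethanol-fed cells, and A44 in 7 of 31 and 3 of 38. The joint counts therefore do not show a link within cells.

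The assays most like A65 over cells were A27 and A29, by the mean over the 4 groups of the within-group Spearman's correlation of relative levels. The means were 0.36 and 0.35, with 33 to 47 cells in a group, against a median of 0.03 over the 67 assays with enough cells. The third assay followed closely, at 0.343 against 0.347 for A29, and on unscaled values A27 ranked 13th and A29 3rd, so this order depends on the scaling. A29 is also among the jointly missing assays, so only the 182 cells outside that set could enter its correlations. Spearman's correlation for A27 was 0.52, 0.23, 0.42 and 0.29 and for A29 0.04, 0.35, 0.46 and 0.54 in carbohydrate-fed cells at 0 h and 24 h and then in ethanol-fed cells at 0 h and 24 h. Their group means did not follow A65: at 24 h A27 was higher by 1.66 on carbohydrate and 0.67 on ethanol, and A29 by 1.93 and 0.58. The assays most like A44 were A73 and A22, both with a mean correlation of 0.42 over 23 to 37 cells a group, against a median of 0.08 over 49 assays. In the same order of groups the correlation was 0.38, 0.16, 0.59 and 0.58 for A73. For A22 it was 0.31, 0.33, 0.58 and 0.48. On unscaled values A73 ranked 2nd and A22 6th. A73 differed by -0.37 and 0.62 at 24 h on carbohydrate and on ethanol, and A22 by -0.22 and -0.66. A44 ranked 29th of 67 among the assays like A65, with a mean correlation of 0.05.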

How the data were processed

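The authors deposited 1 table of Ct values, on the log2 scale of template amount, for 84 assays and 233 cells, not normalized; per the file headers it has 1 column per cell, matched to the cells' descriptions. Per the labels' protocols, cDNA was pre-amplified for 22 cycles with targeted primers and run for 30 cycles on a BioMark Dynamic Array with SYBR Green. The sources used here name no analysis software, Ct threshold, NULL rule or reference gene. Values ran from 2.50 to 25.9, and 26.1% of 19572 entries were NULL.

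Relative levels used the median of 28 common assays with NULL counted as Ct 30. An assay was compared only where 10 or more cells of each group had a Ct. No column was identical to another (0 found), and every cell had at least 31 assays with a Ct. Correlations needed at least 20 cells with both values in every group to be ranked. The calculation was tested on simulated data in which only assays outside the common set were made to differ, with NULL entries kept in place. A differing common assay, such as A65, and missing values linked to level were therefore not covered. Python 3.11.15, pandas 2.3.3 and scipy 1.17.1 were used.

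The assays, lists and limits, including Ct 20, Ct 17 and the 5 jointly missing assays, were chosen with earlier results of these data known. The rule for named assays was the 2 chosen ones plus, for each, the 2 most like it. Alternatives varied scaling, missing values, means and the cells kept.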

Additional observations from a re-analysis of the deposited data

Results flagged for a closer look

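4 results were picked out because a difference had opposite signs in the groups it was taken in. These differences were not tested, because a group is 1 sample. The share of cells with a Ct for A65 differed by 3.95 points on carbohydrate and -3.87 on ethanol between 0 h and 24 h, a gap of -7.82 points, and the same gap of -7.82 points arose between the times when the diets were compared. The share for A44 differed by 14.3 points on carbohydrate and -4.18 on ethanol, a gap of -18.5 points. The relative level of A44 differed between diets by 0.20 at 0 h and -0.97 at 24 h, a gap of -1.18.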

How the results depend on the processing

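A65 was lower at 24 h under every alternative run, by -2.65 to -0.92 on carbohydrate and -2.89 to -1.62 on ethanol; with missing values entered at Ct 30 the carbohydrate value was -0.92, short of the size rule. A44 was lower on ethanol under all 11 alternatives, by -1.89 to -0.58, and short of the size rule without scaling (-0.58) and among cells with 50 to 70 assays (-0.58). On carbohydrate A44 lay between -0.77 and 2.14, below 0 under 6 of 10 alternatives. Some of these alternatives could not differ from the main result or returned it unchanged. A44 is not a common assay, so scaling without the member itself repeated -1.37 on ethanol and -0.19 on carbohydrate. Leaving out cells with a common-assay median above Ct 17 also repeated -0.19 on carbohydrate. The alternatives reuse the cells by which both assays were chosen, so a shared sign is not a separate check.

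With missing values entered at Ct 30, which mixes level and share, A44 differed by 2.14 on carbohydrate, by 5.10 between diets at 0 h and by 1.07 at 24 h, and A65 by 1.43 between diets at 0 h and by -1.97 between diets in the time difference, where A44 gave -4.03. Without scaling A65 differed by 1.14 between diets at 0 h. The A44 difference between diets in the time difference was -0.80 with scaling to every assay, -0.53 with medians and -0.71 with values above Ct 20 as missing, but -1.93 with at least 60 assays and -1.79 within the 182 cells. Between diets A44 differed by 1.11 at 0 h among cells with at least 60 assays, and at 24 h by -1.05 with missing values left out of the cell median and by -1.27 within the 182 cells. The cause was not tested.

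Shares moved with the cells kept. On carbohydrate A65 differed by -4.55 points with at least 60 assays, -13.6 with 50 to 70 and 18.3 within the 51 cells, and on ethanol by -6.98, -19.05 and -6.67, and by -7.76 without cells above a common median of Ct 17. Between diets at 0 h A65 differed by 0, 0 and 26.7 points in the same order, and 11.4 without cells above Ct 17. A44 differed on carbohydrate by 2.27, -16.6 and -28.3 points, and within the 51 cells by -22.2 on ethanol, 35.6 between diets at 0 h and 41.7 at 24 h. Between diets it was 18.2 at 0 h with at least 60 assays and 29.9 at 24 h with 50 to 70.

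On carbohydrate 3 of 80 assays compared were lower by the size rule. It was 6 of 80 with medians and 9 of 76 with the Ct 20 limit. Without cells above Ct 17 it was 6 of 80, and within the 51 cells 5 of 42. On ethanol 3 of 81 became 1 of 81 without scaling and 7 of 84 with Ct 30 entered. With the Ct 20 limit it was 6 of 80 on ethanol. That limit also left 16 common assays for the scaling instead of 28, so its counts rest on another scale. Spearman's correlation between A65 and A44 without scaling was 0.48 in carbohydrate-fed 0 h cells, 0.60 in ethanol-fed 0 h cells and 0.23 at 24 h, and 0.089 in ethanol-fed 0 h cells with scaling to every assay. No paired analysis was possible because a cell number in the titles is only a name and links no cells across groups. Within the 51 cells too few had a Ct to compare levels of A44, or levels of A65 with those in ethanol-fed 0 h cells. Shares there were still compared, over only 9 to 15 cells a group.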
